A study of Mus musculus with 24 samples.

Results

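The genes described here are the 3 *Cyp26* genes, *Cyp26a1*, *Cyp26b1* and *Cyp26c1*, and *Dhrs3*, found by their symbols in a count table of 26264 genes and 24 RNA-seq libraries. They are 4 of the 26264 genes, and all 4 passed the filter on low counts in every fit. The libraries come from 2 mouse embryonic stem cell (ESC) lines. In BAP1-AID cells an HA-AID tag sits at the C terminus of BAP1, the catalytic subunit of the H2AK119ub1 deubiquitinase PR-DUB. In UTX-AID cells the tag sits at the N terminus of UTX (KDM6A), an H3K27 demethylase. Both lines were made with CRISPR-Cas9 and both stably overexpress TIR1, the adaptor through which the auxin IAA sends the tagged protein to degradation, so that cells labelled -IAA also carry the tag and TIR1. Each line is 1 clone, so the tagged protein and the clone cannot be told apart. Cells grew in serum and LIF on gelatin and were left without IAA (-IAA) or pretreated with it for 2 h (+IAA, dissolved in ethanol). They were sequenced after 0, 3 or 6 h of all-trans retinoic acid (RA), which was given without LIF. A change from 0 h thus holds RA, removal of LIF and time in culture, which cannot be told apart. The paper does not state whether IAA stayed on during RA, so the length of depletion may also differ between the times. There were 12 groups (2 clones, 2 IAA arms, 3 times) of 2 libraries each. No source states that the 2 libraries of a group came from separate cultures, so the p-values measure only the spread between these libraries, which may be technical.

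RA is made from retinol in a pair of oxidations, retinol to retinal and retinal to RA, and acts in the nucleus through heterodimers of RAR and RXR receptors bound to direct repeats of a hexamer. The CYP26 enzymes are microsomal cytochrome P450s that hydroxylate RA and so start its breakdown. DHRS3 works earlier in the pathway: it reduces retinal back to retinol and so lowers the supply from which RA is made. *Cyp26a1* and *Dhrs3* are textbook RA-induced genes, and the induction of enzymes that remove RA or its precursor is known as negative feedback on RA signalling. *Cyp26b1* and *Cyp26c1* are best known from the hindbrain, limb and head of the embryo, where the 3 CYP26 enzymes divide the work of clearing RA between tissues.

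*Cyp26c1* and *Cyp26a1* lie next to each other on mouse chromosome 19 in the same orientation. In GRCm39 (mm39) with GENCODE vM39 annotation, *Cyp26c1* covers chr19:37674029-37684073 (plus strand, 6 exons) and *Cyp26a1* covers chr19:37686241-37689984 (plus strand, 7 exons), with 2167 bases between them. *Cyp26b1* stands alone on chr6:84548396-84570890 (minus strand, 6 exons) and *Dhrs3* on chr4:144619245-144654779 (plus strand, 6 exons). The bases upstream of the start of each gene's canonical transcript were searched for DR5, a direct repeat of the hexamer of the RAR with 5 bases between the copies, on either strand. The hexamer was AGGTCA, and AGTTCA was accepted in its place, as was GGGTCA and also GGTTCA. Motifs were allowed to overlap one another. For *Cyp26b1* that start is at position 84565965, inside the locus given above, so the bases before its outermost start were not searched. The *Cyp26a1* promoter is shown because it is the only one of the 4 with a DR5 in the 250 bases before the start. The promoter below is chr19:37685991-37686240 on the plus strand, and the stretch further upstream is chr19:37684337-37684393 on the plus strand. Capitals mark the hexamers of each DR5, which in the promoter read AGTTCA on the other strand.
*Cyp26a1* promoter: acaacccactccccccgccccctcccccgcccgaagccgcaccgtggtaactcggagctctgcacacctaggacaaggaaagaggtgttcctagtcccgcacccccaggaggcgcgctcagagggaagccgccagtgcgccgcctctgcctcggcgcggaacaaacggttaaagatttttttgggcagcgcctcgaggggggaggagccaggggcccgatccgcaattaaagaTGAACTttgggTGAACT
*Cyp26a1* upstream DR5: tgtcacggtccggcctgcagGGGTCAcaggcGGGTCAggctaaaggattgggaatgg
The promoter DR5 takes up the last 17 bases before the annotated start, chr19:37686224-37686240. A DR5 stood in the same 250-base window of 12 of 21757 protein-coding genes (0.0552%). The second *Cyp26a1* copy, chr19:37684357-37684373, lies 1884 to 1868 bases upstream of the start, between *Cyp26c1* and *Cyp26a1*. Within 3000 bases a DR5 was found for 264 genes (1.21%), and *Cyp26a1* was the only one of the 4 among them. Repeats with a spacing of 1 base (DR1) or 2 bases (DR2) were found for none of the 4 within 3000 bases, where 2.33% and 3.95% of genes hold one. These are matches of letters only, and 3000 bases before a start do not cover every position from which a gene can be regulated.

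Counts were written by the authors from StringTie estimates, and the libraries held 42018795 to 54034789 counts each. Levels are given as counts per 1e6 counts (CPM, scaled by TMM factors of 0.965 to 1.03 over all 24 libraries), and 3 counts equalled 0.0545 to 0.0695 CPM. A value listed at 0 needs care in such estimates: 6 to 26 genes per library stood at 0 where the other library of the group held at least 30 counts, whereas 0 or 1 gene stood at 1 or 2 counts there. The defining ESC markers *Pou5f1*, *Nanog*, *Sox2*, *Zfp42*, *Klf4*, *Esrrb* and *Tfcp2l1* were detected in every group. A gene was called changed when edgeR's quasi-likelihood test, after Benjamini-Hochberg adjustment over the genes tested, gave an adjusted p under 0.05 and the log2 fold change exceeded 1 in size.

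All 4 genes rose within 3 h of RA given without LIF, in both clones and with and without IAA. *Cyp26a1* rose 97.7-fold to 317-fold in mean CPM by 3 h and 169-fold to 574-fold by 6 h over the 4 combinations of clone and arm. *Dhrs3* rose 8.43-fold to 15.1-fold by 3 h and 11.96-fold to 20.5-fold by 6 h. At 3 h against 0 h, 4 of 4 genes were called higher in BAP1-AID -IAA (background 1.89% of 15695 genes tested), BAP1-AID +IAA (2.05%), UTX-AID -IAA (1.28% of 16268) and UTX-AID +IAA (1.10%). At 6 h against 0 h, 4 of 4 were again called higher in BAP1-AID -IAA (background 2.98%), BAP1-AID +IAA (3.18%), UTX-AID -IAA (1.51%) and UTX-AID +IAA (1.63%). These counts were 4 of 4 under every alternative and with any single library left out. *Cyp26c1*, and *Cyp26b1* in the UTX-AID fit, passed the filter on low counts only through libraries with RA. For them a call of higher was likely in advance and adds little to these counts. *Cyp26a1* and *Dhrs3* held enough counts at 0 h to pass.

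*Cyp26a1* without IAA in BAP1-AID stood at 1.23 and 1.08 CPM at 0 h, 269.7 and 247 CPM at 3 h, and 475 and 482 CPM at 6 h. With IAA the same clone gave 0.877 and 0.864 CPM at 0 h, 275 and 277 CPM at 3 h, and 498 and 502 CPM at 6 h. No library at a later time overlapped one at an earlier time. The log2 fold change at 6 h against 0 h was 8.72 ± 0.10 (SE) without IAA (adjusted p = 5.24e-14) and 9.18 ± 0.11 with IAA (adjusted p = 4.23e-14). Among the 15695 genes tested in this clone, *Cyp26a1* had the smallest p at 3 h and at 6 h in both arms. Its gain at 6 h, 478 CPM without IAA and 499 CPM with IAA, ranked 2 and 6 among these genes. At 3 h the gain ranked 6 and 7. At 6 h it stood above 97.9% of the genes tested in both arms.

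In UTX-AID without IAA, *Cyp26a1* was listed at 0 and at 0.719 CPM (0 and 35 counts) at 0 h, and stood at 69.2 and 85.5 CPM at 3 h and 121 and 128 CPM at 6 h. With IAA it gave 0.911 and 0.665 CPM, then 79.3 and 74.8 CPM, then 137 and 129.9 CPM. The times did not overlap, and at 3 h and 6 h every UTX-AID library lay below every BAP1-AID library. The log2 fold change at 6 h was 7.42 ± 0.36 with IAA (adjusted p = 1.89e-10). Without IAA it was 8.43 ± 0.52 (adjusted p = 1.95e-10), a value that rests on the library listed at 0: without replicate 1 of the 0 h group it was 7.46, and without replicate 2 it was 15.6. At 3 h the same 2 omissions gave 6.77 and 14.9, against 7.75 with all libraries. In the rank by p, *Cyp26a1* was 4 of 16268 genes without IAA and 5 with IAA, at both times. By the gain in CPM at 6 h it ranked 21 without IAA and 19 with IAA.

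*Dhrs3*, the retinal reductase, was detected in all 8 libraries before RA. In BAP1-AID it stood at 1.91 and 3.00 CPM at 0 h, 34.0 and 35.3 CPM at 3 h, and 46.5 and 42.9 CPM at 6 h without IAA. With IAA these values were 2.203 and 2.49, 35.9 and 34.9, and 49.4 and 46.7 CPM. In UTX-AID it stood at 1.13 and 1.17, 10.2 and 12.8, and 13.5 and 14.0 CPM without IAA, and at 1.27 and 1.25, 10.6 and 10.6, and 15.6 and 14.9 CPM with IAA. The times did not overlap in any arm, and the steepest part of the rise lay before 3 h. The log2 fold change at 6 h against 0 h was 4.22 ± 0.15 and 4.38 ± 0.16 in BAP1-AID without and with IAA (adjusted p = 4.08e-09 and 3.33e-09). The UTX-AID values were 3.59 ± 0.16 and 3.62 ± 0.16 (adjusted p = 1.45e-09 and 1.03e-09).

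*Cyp26b1* began at 0.385 and 0.375 CPM in BAP1-AID without IAA and reached 7.34 and 6.72 CPM at 3 h and 18.3 and 15.9 CPM at 6 h. With IAA it went from 0.156 and 0.268 CPM to 9.29 and 8.75 CPM and to 19.9 and 19.8 CPM. Its log2 fold change at 6 h was 5.51 ± 0.20 without IAA (adjusted p = 1.68e-09) and 6.56 ± 0.25 with IAA (adjusted p = 1.05e-09). In UTX-AID with IAA it went from 0.133 and 0.0807 CPM (7 and 4 counts) to 2.73 and 3.29 CPM and to 7.88 and 7.90 CPM, a log2 fold change at 6 h of 6.19 ± 0.45 (adjusted p = 8.00e-08). Without IAA both UTX-AID libraries at 0 h were listed at 0, and the gene stood at 3.75 and 4.99 CPM at 3 h and at 6.40 and 10.3 CPM at 6 h. Set against 3 counts per library, the rise was at least 70.4-fold at 3 h and at least 134-fold at 6 h. Such bounds cover counting error only, not a listed 0 that hides more counts.

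*Cyp26c1*, the third enzyme of the family, was listed at 0 in all 8 libraries at 0 h. Without IAA it reached 2.34 and 1.91 CPM at 3 h and 2.55 and 2.69 CPM at 6 h in BAP1-AID, and 1.55 and 0.965 CPM and then 1.66 and 1.45 CPM in UTX-AID. With IAA the BAP1-AID libraries gave 2.27 and 1.70 CPM and then 3.85 and 2.73 CPM, and the UTX-AID libraries 1.31 and 0.931 CPM and then 1.87 and 1.79 CPM. Every library with RA held at least 47 counts. Against 3 counts per library the rise at 6 h was at least 44.9-fold and 54.7-fold in BAP1-AID without and with IAA, and at least 25.0-fold and 31.2-fold in UTX-AID. These bounds cover counting error only, not a listed 0 that hides more counts.

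**Figure D1:**
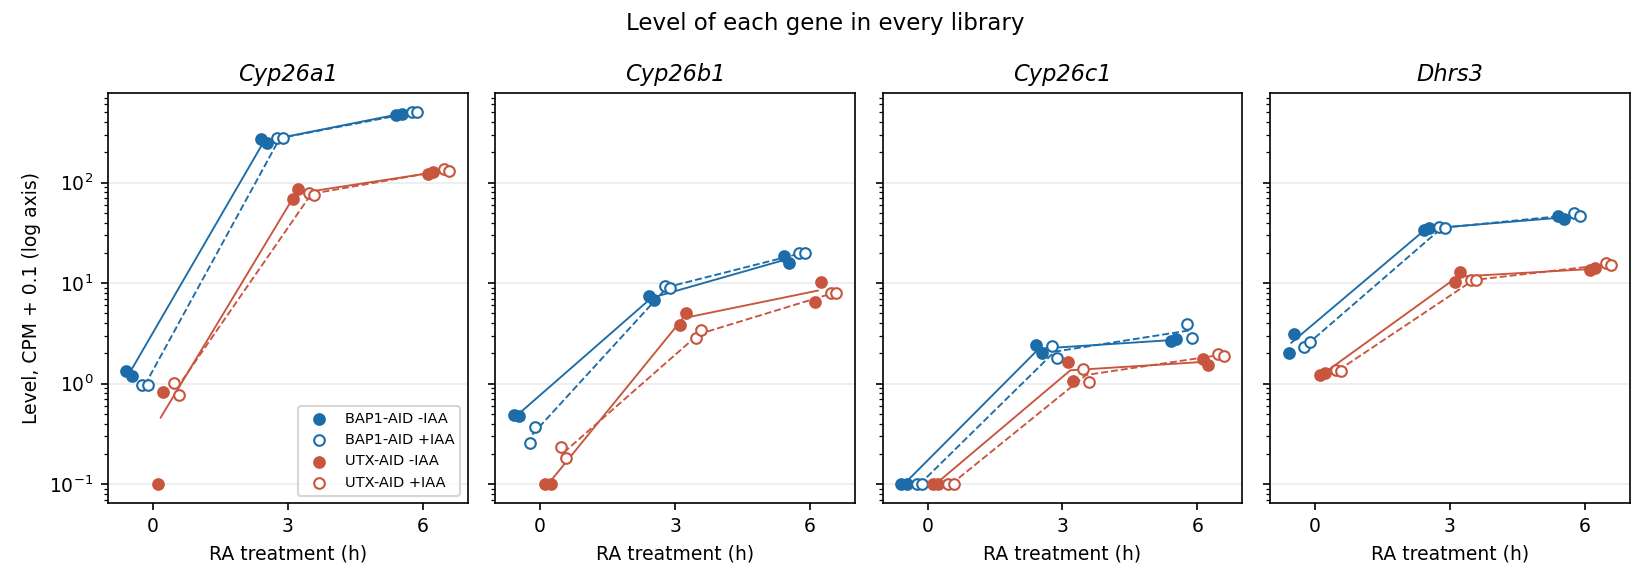
Level of each gene (CPM + 0.1, log axis) in each of the 24 libraries against hours of RA; filled circles are -IAA and open circles +IAA libraries, blue is BAP1-AID, red is UTX-AID, and lines join the group means. All 4 genes rise by 3 h in every arm, *Cyp26a1* reaches 475 to 502 CPM in BAP1-AID and 121 to 137 CPM in UTX-AID at 6 h, and points at the bottom (0.1) are libraries listed at 0.

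Per kb of the longest annotated transcript, the order of the levels turned over between 0 h and 3 h. At 0 h *Dhrs3* led *Cyp26a1* in the mean of every group, for example by 0.877 ± 0.276 (SD, n = 2) against 0.645 ± 0.0579 CPM per kb in BAP1-AID -IAA, where the libraries of these neighbours overlapped. They also overlapped in UTX-AID +IAA, but not in the other 2 groups. In UTX-AID -IAA the size of the lead rests on the *Cyp26a1* library listed at 0: the other stood at 0.401 CPM per kb, against 0.403 and 0.419 for *Dhrs3*. At 3 h and 6 h the order was *Cyp26a1*, *Dhrs3*, *Cyp26b1*, *Cyp26c1* in all 8 groups, with no overlap between neighbours in the order. At 6 h in BAP1-AID -IAA these levels were 267 ± 2.87, 15.99 ± 0.919, 3.19 ± 0.319 and 0.660 ± 0.0250 CPM per kb. At 6 h in UTX-AID -IAA they were 69.3 ± 2.88, 4.91 ± 0.125, 1.55 ± 0.507 and 0.390 ± 0.0374 CPM per kb.

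By the longest transcript, *Cyp26a1* thus made up nearly all of the CYP26 message. Its share of the summed level per kb of the 3 *Cyp26* genes was 98.3% to 98.8% in the 8 BAP1-AID libraries with RA and 96.9% to 98.1% in the 8 UTX-AID libraries with RA. The share of *Cyp26b1* was 0.898% to 1.32% in BAP1-AID and 1.13% to 2.59% in UTX-AID, and that of *Cyp26c1* at most 0.387% and 0.985%. The level per kb of *Cyp26a1* was 0.540 to 1.01 times that of *Dhrs3* in BAP1-AID at 0 h, 10.9 to 12.4 times at 3 h and 15.7 to 17.5 times at 6 h. In UTX-AID it was 0 to 1.12 times at 0 h, with the 0 from the library listed at 0. It was then 10.4 to 11.6 times at 3 h and 13.6 to 14.3 times at 6 h. With the shortest coding transcript as the length, *Cyp26b1* at 6 h in BAP1-AID -IAA came to 12.8 and *Dhrs3* to 65.2 CPM per kb, and the order at 3 h and 6 h was as before. In UTX-AID -IAA *Cyp26b1* came to 6.21 CPM per kb at 6 h, beside 69.3 for *Cyp26a1*. The share of *Cyp26b1* is thus larger by this length.

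**Figure D2:**
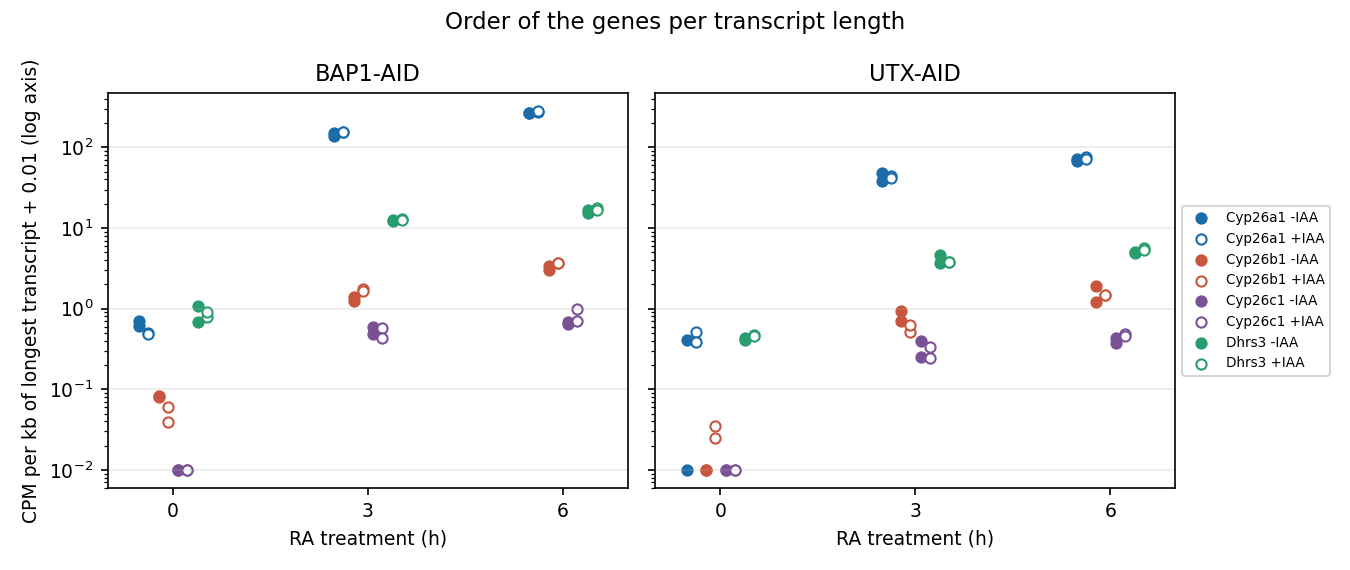
Level per kb of the longest transcript (CPM per kb + 0.01, log axis) of the 4 genes against hours of RA, in BAP1-AID (left) and UTX-AID (right); filled points are -IAA and open points +IAA libraries. *Dhrs3* and *Cyp26a1* lie close together at 0 h, and from 3 h the order is *Cyp26a1*, *Dhrs3*, *Cyp26b1*, *Cyp26c1* in both panels.

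The 4 genes differed in how far the rise had gone by 3 h. The mean level at 3 h was 69.7% to 83.7% of that at 6 h for *Dhrs3* over the 4 combinations of clone and arm, 60.3% to 81.2% for *Cyp26c1*, 54.0% to 62.2% for *Cyp26a1* and 38.1% to 52.5% for *Cyp26b1*. At 6 h against 3 h, *Cyp26b1* was the only one of the 4 called higher: 1 of 4 genes in BAP1-AID -IAA (background 0.274%), BAP1-AID +IAA (0.389%) and UTX-AID +IAA (0.0430%), and 0 of 4 in UTX-AID -IAA (0.0369%). Its log2 fold change from 3 h to 6 h was 1.30 ± 0.13 (adjusted p = 0.000386) without IAA and 1.13 ± 0.13 with it (adjusted p = 0.00053) in BAP1-AID. In UTX-AID with IAA it was 1.40 ± 0.25 (adjusted p = 0.0313), a call that was lost without any 1 of the 4 libraries compared (1.27 to 1.54, adjusted p = 0.167 to 0.312). In UTX-AID without IAA it was 0.93 ± 0.25 (adjusted p = 0.146).

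*Cyp26a1* passed the p threshold from 3 h to 6 h in BAP1-AID but not the fold threshold, with log2 fold changes of 0.90 ± 0.06 (adjusted p = 5.20e-05) and 0.85 ± 0.06 (adjusted p = 4.49e-05) without and with IAA. In UTX-AID its values were 0.69 ± 0.18 (adjusted p = 0.123) and 0.80 ± 0.18 (adjusted p = 0.101). *Dhrs3* values ran from 0.26 ± 0.14 in UTX-AID -IAA to 0.53 ± 0.14 in UTX-AID +IAA, with adjusted p from 0.0737 to 0.580. *Cyp26c1* values ran from 0.30 ± 0.44 to 0.72 ± 0.30, with adjusted p from 0.270 to 0.919.

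The time courses were compared directly by the ratio of each gene to *Cyp26a1* within a library, log2 of (CPM + 0.1), in which library scaling cancels. From 3 h to 6 h the ratio of *Dhrs3* to *Cyp26a1* fell by 0.41 on the log2 scale, in 4 of 4 combinations of clone and arm. The two-sided exact permutation test within those combinations gave p = 0.00154, the smallest its 1296 arrangements allow (adjusted over 3 genes, 0.00463). The ratio of *Cyp26b1* to *Cyp26a1* rose by 0.36 in 4 of 4 (exact permutation p = 0.00463, adjusted 0.00694). Taken by combination, the *Cyp26b1* ratio changed by 0.38 and 0.27 in BAP1-AID without and with IAA and by 0.20 and 0.58 in UTX-AID, and the *Dhrs3* ratio by -0.52, -0.42, -0.43 and -0.27. The ratio of *Cyp26c1* moved by -0.31, down in 4 of 4 (exact permutation p = 0.0540, adjusted 0.0540). So between 3 h and 6 h *Dhrs3* lost ground to *Cyp26a1* and *Cyp26b1* gained on it.

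**Figure D3:**
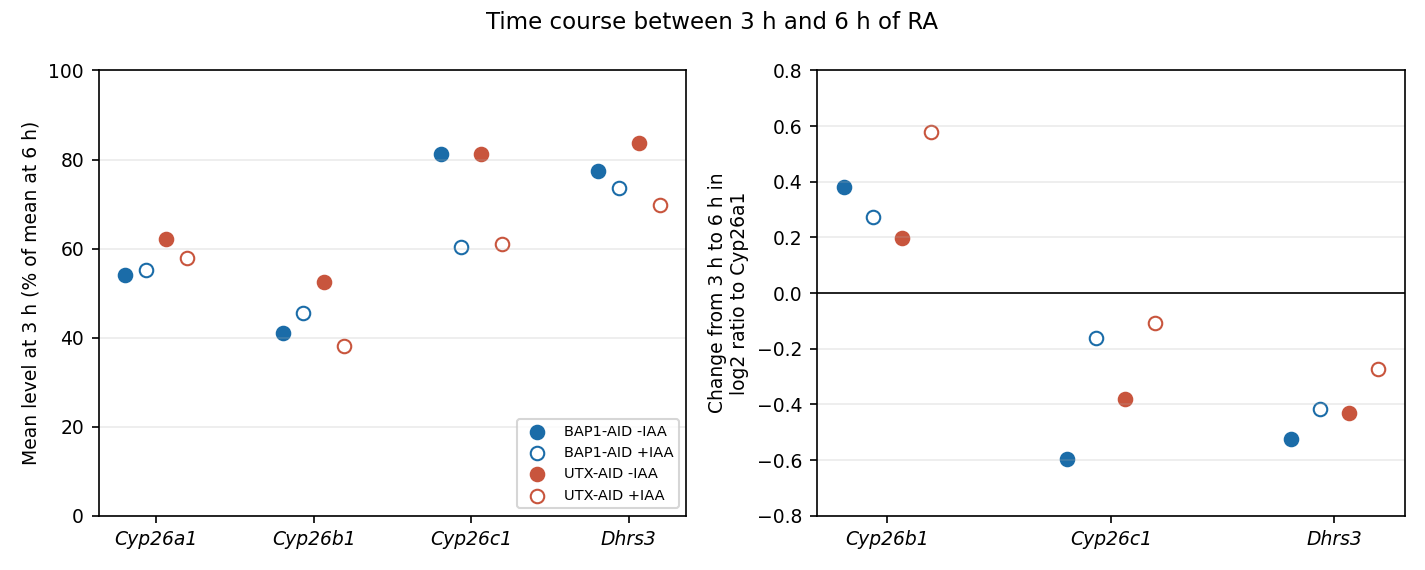
Left, mean level at 3 h as a percent of the mean level at 6 h; right, change from 3 h to 6 h in the log2 ratio of each gene to *Cyp26a1*; each point is 1 combination of clone and IAA arm (2 libraries per time). *Cyp26b1* is lowest on the left (38.1% to 52.5%) and above 0 on the right in 4 of 4 combinations, and *Dhrs3* is below 0 in 4 of 4.

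Whether loss of BAP1 or UTX alters this induction was asked by comparing the log2 fold change from 0 h with and without IAA. None of the 4 genes was called. At 3 h the count was 0 of 4 in BAP1-AID (background 0%, 1176 of 15695 genes at an unadjusted p under 0.05) and 0 of 4 in UTX-AID (background 0.0123%, 671 of 16268). At 6 h it was 0 of 4 in BAP1-AID (background 0.0255%, 1615 genes) and 0 of 4 in UTX-AID (background 0%, 558 genes). DESeq2 gave 0 of 4 in each of these comparisons too.

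In BAP1-AID the difference in response at 6 h (with minus without IAA) was 0.47 ± 0.15 for *Cyp26a1* (adjusted p = 0.368), 1.05 ± 0.33 for *Cyp26b1* (adjusted p = 0.254) and 0.16 ± 0.22 for *Dhrs3* (adjusted p = 0.877). At 3 h it was 0.52 ± 0.15 for *Cyp26a1* (adjusted p = 0.451) and 1.22 ± 0.33 for *Cyp26b1* (adjusted p = 0.310). The positive *Cyp26a1* and *Cyp26b1* values go with lower levels before RA and higher levels at 3 h and 6 h. With IAA the 0 h libraries of both genes lay below those without IAA. The IAA effects at 0 h were -0.43 ± 0.13 (adjusted p = 0.122) and -0.86 ± 0.30 (adjusted p = 0.0923). The UTX-AID difference at 6 h was 0.03 ± 0.23 for *Dhrs3* (adjusted p = 1.00) and -1.01 ± 0.63 for *Cyp26a1* (adjusted p = 1.00). The *Cyp26a1* value rests on the library listed at 0 (replicate 1 at 0 h without IAA): without it the difference was -0.037, and without replicate 2 it was -8.17 (adjusted p = 0.0351). Before RA, *Cyp26c1* was listed at 0 in both clones and arms and *Cyp26b1* in UTX-AID -IAA, so no difference in fold can be given for them.

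Averaged over 0, 3 and 6 h, IAA called 0 of 4 genes in BAP1-AID (background 1.51%, 6978 genes at an unadjusted p under 0.05) and 0 of 4 in UTX-AID (background 0.135%, 2543 genes). At 0 h it called 0 of 4 in BAP1-AID (background 1.15%, 4839 genes) and 0 of 4 in UTX-AID (background 0.0184%, 1303 genes). DESeq2 also gave 0 of 4 in all 4 comparisons. In BAP1-AID the unadjusted edgeR p at 0 h was under 0.05 for *Cyp26a1* (0.033) and *Cyp26b1* (0.022), and averaged for none of the 4. In UTX-AID it was under 0.05 only for *Cyp26b1* (0.00081 at 0 h, 0.0039 averaged), fitted against 0 h libraries listed at 0. In BAP1-AID the averaged effect was -0.10 ± 0.05 for *Cyp26a1* (adjusted p = 0.246), -0.11 ± 0.12 for *Cyp26b1* (adjusted p = 0.552) and 0.01 ± 0.08 for *Dhrs3* (adjusted p = 0.971). In UTX-AID it was 0.41 ± 0.22 for *Cyp26a1* (adjusted p = 0.380) and 0.06 ± 0.09 for *Dhrs3* (adjusted p = 0.824). Under a block for the replicate number, 1 gene, *Cyp26b1*, was called in UTX-AID (1.62, adjusted p = 0.0458), a value fitted against 0 h libraries listed at 0. Without the UTX-AID -IAA library listed at 0 (replicate 1 at 0 h), the *Cyp26a1* effect in UTX-AID was 0.083 averaged and 0.15 at 0 h. Without replicate 2 it was called, at 2.80 averaged (adjusted p = 0.00073) and 8.28 at 0 h (adjusted p = 0.00318). In BAP1-AID at 3 h and 6 h, both +IAA libraries of *Cyp26a1* and of *Cyp26b1* lay above both -IAA libraries, a difference at single times that was not tested.

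Other cytochrome P450 genes differed between the arms, which also differ in the tagged protein and may differ in ethanol, so these cannot be told apart. Of 91 other *Cyp* genes in the table, the filter kept 28 for BAP1-AID and 30 for UTX-AID, and *Cyp1a1* and *Cyp1b1*, both textbook targets of the aryl hydrocarbon receptor, were called higher with IAA in both clones. *Cyp1a1* stood at 0.0676 to 0.277 CPM in the -IAA group means and at 6.29 to 10.5 CPM in the +IAA group means, and its averaged effect was 5.67 ± 0.29 in BAP1-AID (adjusted p = 8.41e-08) against 5.09 ± 0.39 in UTX-AID (adjusted p = 5.96e-06). The *Cyp1b1* differences were 3.14 ± 0.15 and 3.34 ± 0.29. *Cyp4f39* was called lower with IAA in BAP1-AID (adjusted p = 0.0147), where both +IAA libraries at 3 h were listed at 0. RA in turn called *Cyp11a1*, the enzyme that begins steroid synthesis, at 6 h against 0 h in 3 of the 4 combinations (1.18 ± 0.16 to 1.89 ± 0.20), and no other *Cyp* gene outside the *Cyp26* family was called higher at 3 h or 6 h.

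*Cyp26a1* and *Dhrs3* were lower in UTX-AID than in BAP1-AID at 3 h and 6 h in both arms, and *Dhrs3* also at 0 h. At 0 h *Cyp26a1* was lower without IAA, where 1 UTX-AID library was listed at 0. With IAA its clones overlapped at 0 h (0.911 and 0.665 CPM in UTX-AID against 0.877 and 0.864 CPM in BAP1-AID). Without IAA at 0 h, 3 of 4 genes were called lower in UTX-AID than in BAP1-AID (background 7.34% of 16816 genes). At 3 h the count was 2 of 4 (background 7.23%), and at 6 h 3 of 4 (background 7.38%). *Cyp26a1* differed by -1.74 ± 0.16 at 3 h (adjusted p = 7.48e-09) and -1.94 ± 0.16 at 6 h (adjusted p = 1.28e-09), and *Dhrs3* by -1.59 ± 0.13 (adjusted p = 3.99e-10) and -1.70 ± 0.12 (adjusted p = 1.16e-10). *Cyp26b1* differed by -0.68 ± 0.20 at 3 h (adjusted p = 0.00718, under the fold threshold) and -1.04 ± 0.19 at 6 h (adjusted p = 0.000111). At 3 h the *Cyp26b1* difference was -1.59 with the +IAA libraries (adjusted p = 1.12e-06), past both thresholds, and -0.23 with the GC and length correction (adjusted p = 0.380). The 6 h call of *Cyp26b1* sits at the fold threshold and was lost without BAP1-AID replicate 1 (-0.94) or UTX-AID replicate 1 (-0.74) of that group. *Cyp26c1* gave -0.76 ± 0.37 at both times (adjusted p = 0.101 and 0.0974).

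Before RA, *Dhrs3* was lower in UTX-AID by a log2 difference of -1.09 ± 0.19 (adjusted p = 2.41e-05). Without BAP1-AID replicate 2, the library at 3.00 CPM, it was -0.74 (adjusted p = 0.0019) and no longer called. *Cyp26a1* differed at 0 h by -1.67 ± 0.49 (adjusted p = 0.00361). This call rests on the library listed at 0: without it the difference was -0.71 (adjusted p = 0.0196), under the fold threshold. Without the other UTX-AID library it was -8.85. *Cyp26b1* was called at 0 h because both UTX-AID libraries were listed at 0, against 0.385 and 0.375 CPM. With the +IAA libraries in their place, a comparison added after the -IAA counts had been seen, 0 of 4 genes were called at 0 h, and the differences were -0.14 for *Cyp26a1*, -0.89 for *Dhrs3* and -0.95 for *Cyp26b1*. The summed level of 5 primitive endoderm markers was 2.12 to 5.11 CPM in UTX-AID and 3.89 to 8.13 CPM in BAP1-AID over all times. The clones overlapped at 0 h but not at 3 h (2.28 to 4.15 against 4.95 to 6.30 CPM) or 6 h (3.07 to 5.11 against 7.63 to 8.13 CPM), and none of the 5 was at 0 in all libraries of a clone and time. Its part in the clone differences was not tested.

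The response to RA itself differed between the clones in 1 of 4 genes at 3 h (background 0.0833%) and 1 of 4 at 6 h (background 0.226%), *Cyp26b1* in both cases. Both calls rest on the 2 UTX-AID -IAA libraries listed at 0 before RA. The response of *Cyp26a1* differed by -0.07 ± 0.52 at 3 h (adjusted p = 1.00) and -0.27 ± 0.52 at 6 h (adjusted p = 0.949). That of *Dhrs3* differed by -0.50 ± 0.23 (adjusted p = 0.564) and -0.61 ± 0.22 (adjusted p = 0.298). The *Cyp26a1* values rest on the UTX-AID library listed at 0: without it they were -1.03 and -1.22 and not called, and without replicate 2 at 0 h they were 7.11 and 6.92 and called. With the +IAA libraries, the *Cyp26a1* response was weaker in UTX-AID by -1.77 at 6 h (adjusted p = 0.0424) and the *Cyp26b1* response differed by -0.38 (adjusted p = 0.927).

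**Figure D4:**
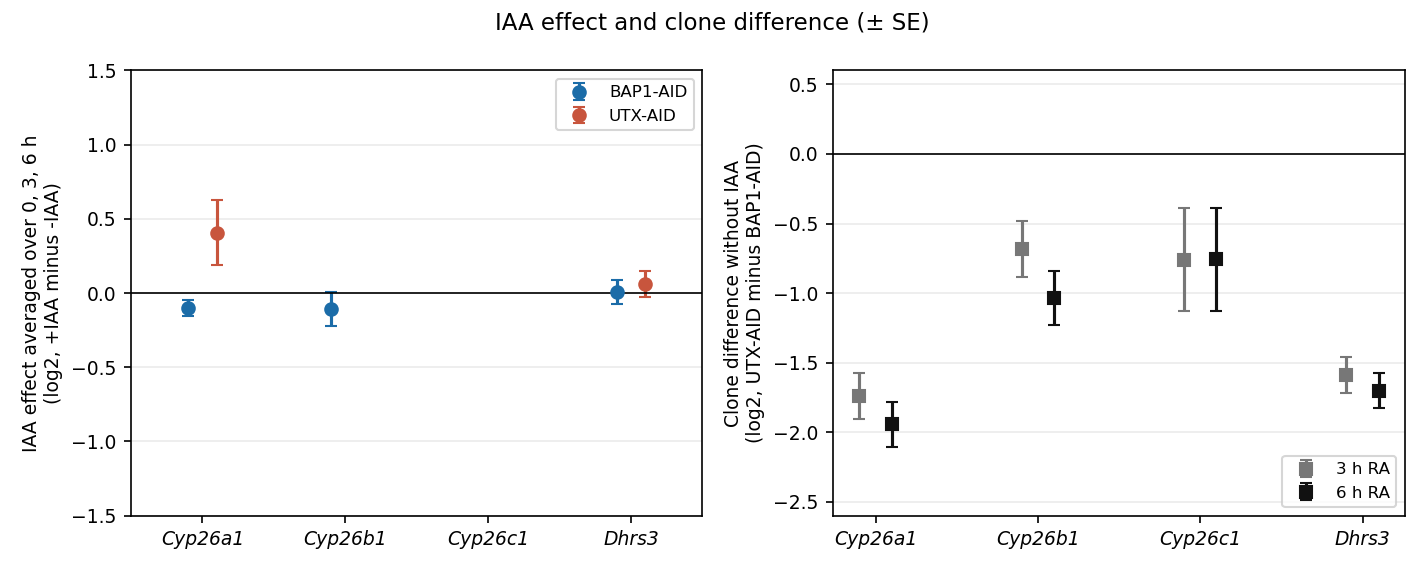
Left, IAA effect averaged over 0, 3 and 6 h (log2, +IAA minus -IAA) in BAP1-AID (blue) and UTX-AID (red); right, clone difference without IAA (log2, UTX-AID minus BAP1-AID) at 3 h (grey) and 6 h (black); bars are ± SE. *Cyp26c1*, and *Cyp26b1* in UTX-AID, have no point on the left because they were listed at 0 before RA (*Cyp26b1* only in the -IAA arm), and on the right *Cyp26a1* and *Dhrs3* lie between -1.94 and -1.59.

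No gene of RA synthesis was called with those of RA removal. Of 4 enzymes that oxidise retinal to RA (*Aldh1a1*, *Aldh1a2*, *Aldh1a3*, *Aldh8a1*), the filter kept 1 for BAP1-AID and 3 for UTX-AID, and none was called at 3 h or 6 h against 0 h in any arm. *Aldh1a2*, the main such enzyme of the early embryo, gave 0.19 ± 0.54 at 6 h in BAP1-AID -IAA (adjusted p = 0.876). In UTX-AID -IAA the median of the 3 tested was 2.06 at 6 h, the value of *Aldh1a3* (SE 2.17), which held at most 9 counts in any of the libraries compared. Of 12 enzymes that interconvert retinol and retinal, 8 and 9 were tested and none was called. Their median log2 fold change at 6 h was -0.02 in BAP1-AID -IAA and -0.07 in UTX-AID -IAA, beside 0.016 and -0.0026 over all genes. *Rdh10*, the retinol dehydrogenase that works against DHRS3, stood at 7.05 ± 0.231 CPM at 0 h and 8.19 ± 0.963 CPM at 6 h in BAP1-AID -IAA, a change of 0.24 ± 0.17 (adjusted p = 0.418). None of 5 genes for electron donors and heme handling of microsomal P450s was called. *Por*, the reductase that supplies microsomal P450s with electrons, rose in BAP1-AID -IAA by 0.89 ± 0.09 at 6 h (adjusted p = 3.14e-05), under the fold threshold.

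Carriers, receptors and a corepressor rose beside the 4 genes. Among the carrier and uptake genes, *Stra6*, the membrane transporter of retinol, was called higher at 3 h and 6 h in all 4 combinations (6.09 ± 0.37 at 6 h in BAP1-AID -IAA, adjusted p = 5.91e-08). *Crabp2*, which carries RA to the receptors, was called at 6 h in BAP1-AID +IAA (1.11 ± 0.17, adjusted p = 0.000708). Of 6 receptor genes, *Rarb* was called in all 4 combinations at 3 h and 6 h. *Rara* was called in all 4 at 3 h and in 3 at 6 h, with UTX-AID -IAA at 0.77 ± 0.10 (adjusted p = 7.85e-05), under the fold threshold. Of 3 corepressor genes, *Nrip1*, which damps receptor activity, was called in all 4 at both times (3.15 ± 0.12 at 6 h in BAP1-AID -IAA, adjusted p = 8.28e-09). Of 5 storage genes, the filter kept 3 for BAP1-AID and 4 for UTX-AID, and only *Lipe* in BAP1-AID +IAA was called (1.20 ± 0.12 at 3 h and 1.29 ± 0.12 at 6 h).

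Genes that flank the 4 were read at 6 h against 0 h. *Exoc6*, which ends 1432 bases before *Cyp26c1*, changed by 0.78 in BAP1-AID -IAA (adjusted p = 0.00146), 0.45 in BAP1-AID +IAA (adjusted p = 0.0339), 0.38 in UTX-AID -IAA (adjusted p = 0.0309) and 0.16 in UTX-AID +IAA (adjusted p = 0.471), none past the fold threshold. *Hhex*, 257061 bases from *Cyp26a1*, gave 0.19 in BAP1-AID -IAA (adjusted p = 0.455). *Cep55*, 353410 bases from *Cyp26a1*, gave 0.47 and 0.38 in BAP1-AID without and with IAA (adjusted p = 0.00123 and 0.00455). It gave 0.29 and 0.31 in UTX-AID (adjusted p = 0.0143 and 0.0116). These values lay below those of *Exoc6* except in UTX-AID +IAA. Whether size followed distance was not tested. In BAP1-AID -IAA, *Kif11*, 263721 bases from *Cyp26c1*, gave 0.44 (adjusted p = 0.000764), and *Myof*, 197499 bases from *Cyp26a1*, gave 0.13 (adjusted p = 0.626). *Exoc6b*, 20535 bases from *Cyp26b1*, gave -0.07 (adjusted p = 0.751). Of the 18 neighbours of the 4 genes (up to 3 on each side), the filter kept 14 for BAP1-AID and 13 for UTX-AID. *Tnfrsf1b*, 284158 bases from *Dhrs3*, was the only one called, in BAP1-AID (1.30 ± 0.10 without and 1.49 ± 0.10 with IAA). In UTX-AID it gave 0.49 ± 0.26 (adjusted p = 0.390) and 0.72 ± 0.27 (adjusted p = 0.151).

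Across the 24 libraries the 4 genes followed one another closely, with Pearson's r of log2(CPM + 1) between 0.969 and 0.982 for the 6 pairs. Within a clone (12 libraries) the closest pair was *Cyp26a1* and *Dhrs3*, at 0.998 in BAP1-AID and 0.997 in UTX-AID. These libraries share the RA time course, and the correlations are descriptions. Among 13321 genes with a mean above 1 CPM in at least 1 group, the gene most like *Cyp26a1* was *Adgra2* (r = 0.985), followed by *Spsb1* and *Hoxa5*. *Hoxa5*, *Dusp9* and *Hoxb2* were the most like *Cyp26b1* (0.984 to 0.986), and *Spsb1*, *Hoxb2* and *Hoxb5* the most like *Cyp26c1* (0.977 to 0.981). *Dhrs3* had other partners, *Zmym3* (0.987), *Mcl1* and *Oprd1*.

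Of 4 trophoblast markers 3 were tested, and 1, *Tfap2c*, was called higher at 3 h and 6 h in all 4 combinations. The summed level of *Cdx2*, *Elf5*, *Gata3* and *Tfap2c* was 1.95 to 2.79 CPM at 0 h and 13.6 to 15.03 CPM at 6 h in BAP1-AID, and 0.726 to 2.02 and 7.27 to 8.28 CPM in UTX-AID, while *Elf5* was at 0 in BAP1-AID with RA. Their part in the levels of the 4 genes was not tested. In bulk samples such as these, more cells with a transcript and more transcript per cell cannot be told apart. Fibroblast feeder markers summed to at most 0.795 CPM in any library, with *Postn* at 0 in all 24.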

How the data were processed

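Per the labels, polyA RNA was captured with oligo-dT beads, and the submitters' processing notes name HISAT2 2.2.1, SAMtools 1.19, StringTie 2.2.1 and deepTools 3.5.4 with mouse build mm39. The annotation and strandedness are not given in the sources used here. The authors deposited 1 table of estimated counts per gene, whole numbers and not normalized, for 26264 genes in 24 libraries (42018795 to 54034789 counts). Counts were tested with edgeR 4.0.16 (R 4.3.3): filterByExpr (minimum count 10, minimum total 15), TMM and the quasi-likelihood test, with p-values adjusted by Benjamini-Hochberg over all genes tested. Each clone's 12 libraries were fitted together for RA and IAA, and all 24 for clone differences. Coefficients of variation were 11.6% to 11.9%, and replicates correlated at 0.982 to 0.986 (log2). SEs are Wald errors of the same fits. Ratios to *Cyp26a1* used log2(CPM + 0.1) and an exact permutation test within clone and arm. Alternatives were DESeq2 1.42.0, RLE factors, no filter, the replicate number as a block, a GC and length correction, all 24 libraries, each library left out and, for ratios, 1 CPM as pseudocount. The use of +IAA libraries for clone differences was added after the data had been seen. Depth limits the precision of low values, and floors (3 counts) cover counting error only. The SEs also hold the fitted spread between libraries, which may be technical.

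Levels per kb used the longest transcript in GENCODE vM39, which matched 23897 of the 26264 symbols (91.0%). Promoter sequence was read from GRCm39. Genes named outside the 4 are those called in a fixed list of the pathway, of other P450 genes, of markers or of the 3 protein-coding neighbours on each side, those needed beside a result of the 4, and those most like each of the 4. The members and lists were chosen with earlier results of these data known. Statistics were tested on simulated data first. One gene of the carrier list is not reported here.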

Additional observations from a re-analysis of the deposited data

Results flagged for a closer look

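The response of *Cyp26b1* to RA without IAA differed between the clones by the interaction term of the edgeR fit, with a log2 difference (UTX-AID minus BAP1-AID) of 6.57 at 3 h (adjusted p = 0.00572) and 6.21 at 6 h (adjusted p = 0.00826). Both values are set by the 0 h libraries. *Cyp26b1* held 20 and 19 counts in BAP1-AID -IAA and was listed at 0 in both UTX-AID -IAA libraries, while the UTX-AID +IAA libraries held 7 and 4 counts. Against all-0 libraries the fitted size depends on the prior count and is no estimate of the fold. With the +IAA libraries the differences were -0.63 (adjusted p = 0.991) and -0.38 (adjusted p = 0.927), and without either UTX-AID -IAA library at 0 h the differences were 6.56 and 6.22 and the adjusted p, with 1 library fewer, rose to between 0.0619 and 0.0788. After RA, *Cyp26b1* was lower in UTX-AID in both arms. The cause of the 0 values was not tested.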

How the results depend on the processing

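All 4 genes were called higher with RA at 3 h and 6 h in every clone and arm under every alternative. RLE factors, no filter and one fit of all 24 libraries changed no call or direction.

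With the replicate number as a block, *Cyp26b1* was called for the averaged IAA effect in UTX-AID, so that 1 gene in place of 0 was called, also with the GC and length correction added (1.64, adjusted p = 0.0478). The block changed no other call. The numbers share only a number: deviations of same-numbered libraries correlated at -0.048 to 0.322 in BAP1-AID (1 of 15 pairs of groups above 0.1) and 0.027 to 0.285 in UTX-AID (11 of 15).

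Directions turned only in results that were not called, apart from *Cyp26b1* in the clone comparison of the response. The GC and length correction, without and with the block, gave *Dhrs3* 0.125 and 0.127 for IAA at 0 h, *Cyp26b1* 0.039 and 0.0405 and *Cyp26a1* 0.0996 and 0.0996 for the averaged IAA effect, and *Cyp26c1* 0.059 and 0.0548 for the altered response at 3 h, all in BAP1-AID, and without the block *Dhrs3* -9.73e-06 for the altered response at 6 h in UTX-AID. It also took *Dhrs3* at 0 h (-0.76) and *Cyp26b1* at 6 h (-0.59) under the fold threshold between clones. DESeq2 turned *Cyp26c1* for the averaged IAA effect in UTX-AID (-0.00247). With +IAA libraries, clone differences called 0 genes at 0 h and 0 in the response at 3 h, and the *Cyp26b1* response differences were -0.631 and -0.377. With 1 CPM as pseudocount the *Cyp26c1* ratio changed by -0.467 and passed (exact permutation test, adjusted p = 0.00463). The cause was not tested.

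Leaving out 1 library at a time gave 0 to 1 genes called for IAA at 0 h, the averaged IAA effect and the altered responses at 3 h and 6 h in UTX-AID, for 6 h against 3 h in UTX-AID +IAA, and for the clone response at 3 h and 6 h. The *Cyp26c1* ratio ran from -0.428 to -0.194, and passed without any of 4 libraries (adjusted p = 0.017 to 0.0386): BAP1-AID +IAA 3 h replicate 2, BAP1-AID +IAA 6 h replicate 1, UTX-AID -IAA 3 h replicate 2 or UTX-AID +IAA 3 h replicate 2. Ranges that crossed 0 were -1.03 to 7.11 and -1.22 to 6.92 for the *Cyp26a1* clone response at 3 h and 6 h, and -0.233 to 0.0237 for *Cyp26b1*, -0.0153 to 0.15 for *Cyp26c1* and -0.0933 to 0.131 for *Dhrs3* in the averaged IAA effect in BAP1-AID. Others were -0.0765 to 0.159 for *Cyp26c1* in UTX-AID, -0.0173 to 0.699 for *Cyp26c1* at 6 h against 3 h in UTX-AID -IAA, -0.325 to 0.0912 and -0.483 to 0.228 for the altered *Cyp26c1* response at 3 h in BAP1-AID and UTX-AID, -0.382 to 0.289 for *Dhrs3* with IAA at 0 h in BAP1-AID, and -0.263 to 0.407, -0.211 to 0.461 and -0.00106 to 0.0545 for the altered *Dhrs3* response at 3 h and 6 h in BAP1-AID and 6 h in UTX-AID.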

Other observations

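*Rarb*, the RA receptor gene that is itself a textbook RA target, was the only receptor gene called for IAA, and it was higher. Averaged over the times it was higher with IAA in BAP1-AID by 1.52 ± 0.30 (log2, edgeR, adjusted p = 0.0002). Other genes of the retinoid pathway were called lower: *Rdh12* in BAP1-AID (-1.31 ± 0.29, adjusted p = 0.0039) and *Stra6* in UTX-AID (adjusted p = 0.0103), where *Stra6* was listed at 0 in both +IAA libraries at 0 h. Of 5 primitive endoderm markers, only the regulator *Gata6* was called at 6 h of RA in BAP1-AID. It was called higher (3.81 ± 0.38 without and 3.92 ± 0.37 with IAA). The median log2 fold change of the 5 markers was -0.10 without and -0.63 with IAA. None of the 5 was called at 6 h in UTX-AID. There *Gata6* gave 1.85 ± 0.53 (adjusted p = 0.0517) without and 1.53 ± 0.53 (adjusted p = 0.124) with IAA. The difference between the clones in the *Gata6* response without IAA was -1.94 ± 0.69 (adjusted p = 0.265).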
